A study of Mus musculus with 14 samples.

Results

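The genes described here serve the unfolded protein response of the endoplasmic reticulum (ER) and the response to shortage of amino acids. They were 38 genes given by name, and a gene was taken as found when the deposited expression table listed a transcript under its symbol. All 38 were found among the 24016 transcripts of the table, each with 1 transcript, and all 38 were annotated there as protein-coding. They were placed in 5 roles: 14 ER chaperones and folding enzymes, 5 genes of ER-associated degradation, 4 stress sensors and transducers including Xbp1, 8 transcription factors of the integrated stress response and genes they act on, and 7 genes of amino acid synthesis and transport. The RNA came from C2C12 cells, a mouse myoblast line obtained from ATCC that fuses into myotubes when growth medium is exchanged for a medium with horse serum. Cells were transfected with a pool of siRNAs against Klf5 (siKlf5), a zinc-finger transcription factor, or with control siRNA (siCtrl), whose sequence is not given in the sources used here. RNA was collected on days 0, 1, 2 and 3 of differentiation, with 1 library for each siRNA and day, and thus 8 libraries in all. The study asked what loss of Klf5 does to gene expression in differentiating myoblasts.

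Proteins that enter the ER are folded there by chaperones such as Hspa5 (BiP) and by disulfide isomerases. When unfolded protein accumulates, the sensors Ern1 (IRE1), Atf6 and Eif2ak3 (PERK) signal to the nucleus through spliced Xbp1, cleaved Atf6 and the translation of Atf4, and genes for chaperones and for degradation of misfolded proteins are transcribed. Atf4 is also translated when uncharged tRNA activates the kinase Gcn2, and it then drives genes for the synthesis and uptake of amino acids, which is why these genes share an integrated stress response (ISR) with the ER. The ER stress response is known to be active in differentiating myoblasts.

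The values were FPKM, reads per length of the transcript and per fixed library total, as deposited, and levels of different genes can thus be compared per length. Depth recovered from the values was between 7850498 reads (siCtrl, day 1) and 20301446 reads (siCtrl, day 2), and on day 2 the siKlf5 library held 11808652 reads. With 1 library per siRNA and day there was no replicate error, and ratios on single days were described without a test. A 95% interval on such a ratio was an exact (Clopper-Pearson) binomial interval on reads divided by 6, because transcripts with exactly 6 reads outnumbered those with 5, by 471 to 64 on day 3 in siCtrl cells, and it covers counting error only. Differences were on the scale of log2(FPKM + 0.1), which understates the change of low genes. A test was possible only where days stood in for replicates. A limma fit with terms for day and siRNA gave the difference of siKlf5 from siCtrl over the 4 days and of each day from day 0 over both siRNAs, with adjusted p over all 14312 transcripts that had a mean FPKM of at least 1 (expressed transcripts). All 38 genes were among these. Such a p-value measures the spread among these libraries, which includes any difference between days in the effect of the siRNA.

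Klf5 itself was at 224, 381, 614 and 933 FPKM on days 0, 1, 2 and 3 in siCtrl cells. In siKlf5 cells it was at 35.1, 160, 192 and 211 FPKM on the same days. Every siKlf5 value was below the siCtrl value of its day, with a fitted log2 difference of -1.94 ± 0.20 (SE; limma, adjusted p = 0.0244). The call was lost without the filter on low values, without limma's trend of variance with level, without the day term, and without the day 2 or the day 3 libraries, with adjusted p between 0.167 and 1.00 in limma. The 8 myogenic markers examined, Myod1, Myf5, Des, Myog, Myh3, Ckm, Acta1 and Tnnt3, were all above 0 in all 8 libraries and summed to between 2765 FPKM (siKlf5, day 0) and 16394 FPKM (siCtrl, day 3). The 8 markers of leukocytes, endothelium, epithelium and adipocytes, Ptprc, Emr1, Pecam1, Cdh5, Epcam, Adipoq, Plin1 and Krt5, summed to at most 7.60 FPKM in any library, and Epcam and Plin1 were at 0 in all 8. In bulk RNA, fewer cells that express a gene and less RNA per cell cannot be told apart.

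Promoter windows of 250 bases before and 50 bases after the transcription start were taken from RefSeq on GRCm38.p6 for 34 of the 38 genes, and Hyou1, Manf, Derl1 and Atf6 had no entry. These 4 windows were chosen as examples that hold letter matches to elements known from these responses. They are those of a chaperone (Hspa5, chr2:34771840-34772139, plus strand), a degradation gene (Herpud1, chr8:94386179-94386478, plus strand), an amino acid gene (Asns, chr6:7693160-7693459, minus strand) and an ISR gene (Chac1, chr2:119350992-119351291, plus strand). Capitals mark a match to the ER stress element (ERSE: CCAAT, 9 bases of any kind and CCACG) in Hspa5, to ERSE-II (ATTGG, 1 base of any kind and CCACG) and to the C/EBP-ATF composite element TGATGNAA, here on the opposite strand, in Herpud1, and to the composite element in Asns and, on the opposite strand, in Chac1.
Hspa5: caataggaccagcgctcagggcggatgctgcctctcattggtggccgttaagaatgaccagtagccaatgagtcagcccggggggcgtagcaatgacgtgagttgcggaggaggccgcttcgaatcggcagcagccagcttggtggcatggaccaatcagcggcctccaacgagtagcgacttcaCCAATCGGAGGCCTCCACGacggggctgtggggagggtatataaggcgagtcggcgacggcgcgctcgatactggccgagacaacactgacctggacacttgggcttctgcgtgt
Herpud1: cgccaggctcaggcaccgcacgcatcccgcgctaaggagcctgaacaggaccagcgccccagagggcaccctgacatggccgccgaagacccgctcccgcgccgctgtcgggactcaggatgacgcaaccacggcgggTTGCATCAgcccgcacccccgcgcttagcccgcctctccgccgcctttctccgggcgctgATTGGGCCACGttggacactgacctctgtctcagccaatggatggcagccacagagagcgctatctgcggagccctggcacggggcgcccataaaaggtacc
Asns: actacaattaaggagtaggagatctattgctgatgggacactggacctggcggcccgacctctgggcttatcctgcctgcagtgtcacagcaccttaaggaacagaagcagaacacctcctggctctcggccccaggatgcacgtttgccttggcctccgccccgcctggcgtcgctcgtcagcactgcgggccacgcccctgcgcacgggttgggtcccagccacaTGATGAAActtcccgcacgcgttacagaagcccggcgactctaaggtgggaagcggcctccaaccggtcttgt
Chac1: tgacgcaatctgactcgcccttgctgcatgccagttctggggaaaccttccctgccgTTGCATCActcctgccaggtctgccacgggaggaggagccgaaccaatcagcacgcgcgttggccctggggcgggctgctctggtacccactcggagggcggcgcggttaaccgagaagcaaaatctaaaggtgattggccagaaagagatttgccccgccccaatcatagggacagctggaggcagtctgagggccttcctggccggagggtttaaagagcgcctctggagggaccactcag

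ERSE was searched on both strands, as were the other elements, and stood in the windows of 8 of the 34 genes. These were 7 of the 12 chaperone genes with a window and Syvn1, whereas 37 of 27025 genes of the whole promoter table (0.137%) held it. The 9 matches, read along the strand of the element, are shown to compare the spacer, with the fixed ends in capitals. Hsp90b1 held a pair, at bases -212 to -194 and -107 to -89 counted from 0 at the start, and the match in Hspa5 lay at -65 to -47.
Hspa5: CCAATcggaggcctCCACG
Hsp90b1, upstream: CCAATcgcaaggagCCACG
Hsp90b1, downstream: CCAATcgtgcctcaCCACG
Calr: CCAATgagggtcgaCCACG
Canx: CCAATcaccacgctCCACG
Pdia6: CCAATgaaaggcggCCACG
Dnajc3: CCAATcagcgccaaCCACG
Creld2: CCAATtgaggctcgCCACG
Syvn1: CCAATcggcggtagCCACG

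ERSE-II was found in Dnajb11 and Herpud1, and in 12 genes (0.0444%) of the whole table. The UPR element TGACGTGG (UPRE) was in none of the 34 windows and in 193 genes (0.714%) of the table. It was in 4 of 31 windows of the further ER folding, translocation and degradation genes described below. The composite element stood in the windows of 7 of the 34 genes, as compared to 1219 genes (4.51%) of the table. Of these 7, 4 were among the 8 ISR genes, 2 were among the 7 amino acid genes and 1 was Herpud1, and none of the 12 chaperone windows held it. Among the tRNA synthetase genes described below, 5 of 8 windows held the composite element. A match is a description of letters and not evidence of binding. The matches are shown along the strand of the element, with the fixed bases in capitals, and the first of a pair in Slc7a11 is given.
Herpud1: TGATGcAA
Atf3: TGATGcAA
Trib3: TGATGtAA
Chac1: TGATGcAA
Vldlr: TGATGcAA
Asns: TGATGaAA
Slc7a11: TGATGcAA

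By sign, 7 of the 8 ISR genes and 6 of the 7 amino acid genes were lower in siKlf5 than in siCtrl cells on day 1. As many of each were higher on day 2. The 14 ER chaperones leaned the same way, with 9 lower on day 1 and 12 higher on day 2. Past 1.5-fold, 3 ISR and 3 amino acid genes were lower on day 1, and 3 and 4 were higher on day 2. No chaperone passed 1.5-fold on any day. The 95% intervals of Atf3, Ddit3, Ppp1r15a and Sesn2 included 0 on both days. On day 0, 2 of the 38 genes were at least 1.5-fold lower in siKlf5 than in siCtrl cells and 0 were higher, beside 11.1% and 9.22% of expressed transcripts. Day 1 had 6 lower and 0 higher (all expressed transcripts: 11.0% lower, 16.4% higher). Day 2 had 1 lower and 7 higher (13.0% lower, 7.69% higher). Day 3 had 1 lower and 3 higher (12.5% lower, 10.7% higher). The median log2 ratio of the 38 genes was -0.09, -0.18, 0.24 and 0.06 on days 0, 1, 2 and 3, and that of all expressed transcripts was 0.00, 0.03, -0.03 and 0.00. On day 1, 28 of the 38 genes were below their siCtrl level, and on day 2, 31 were above it. With median-ratio or upper-quartile scaling of the libraries, 31 were below it on day 1 and 31 above it on day 2. Strongly expressed transcripts in general lay higher in siKlf5 cells on day 2. Of 981 transcripts with a mean of at least 500 FPKM, 858 were above 0 on that day, with a median of 0.20, and the part of this shift in the day 2 values of abundant genes was not tested.

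**Figure D1:**
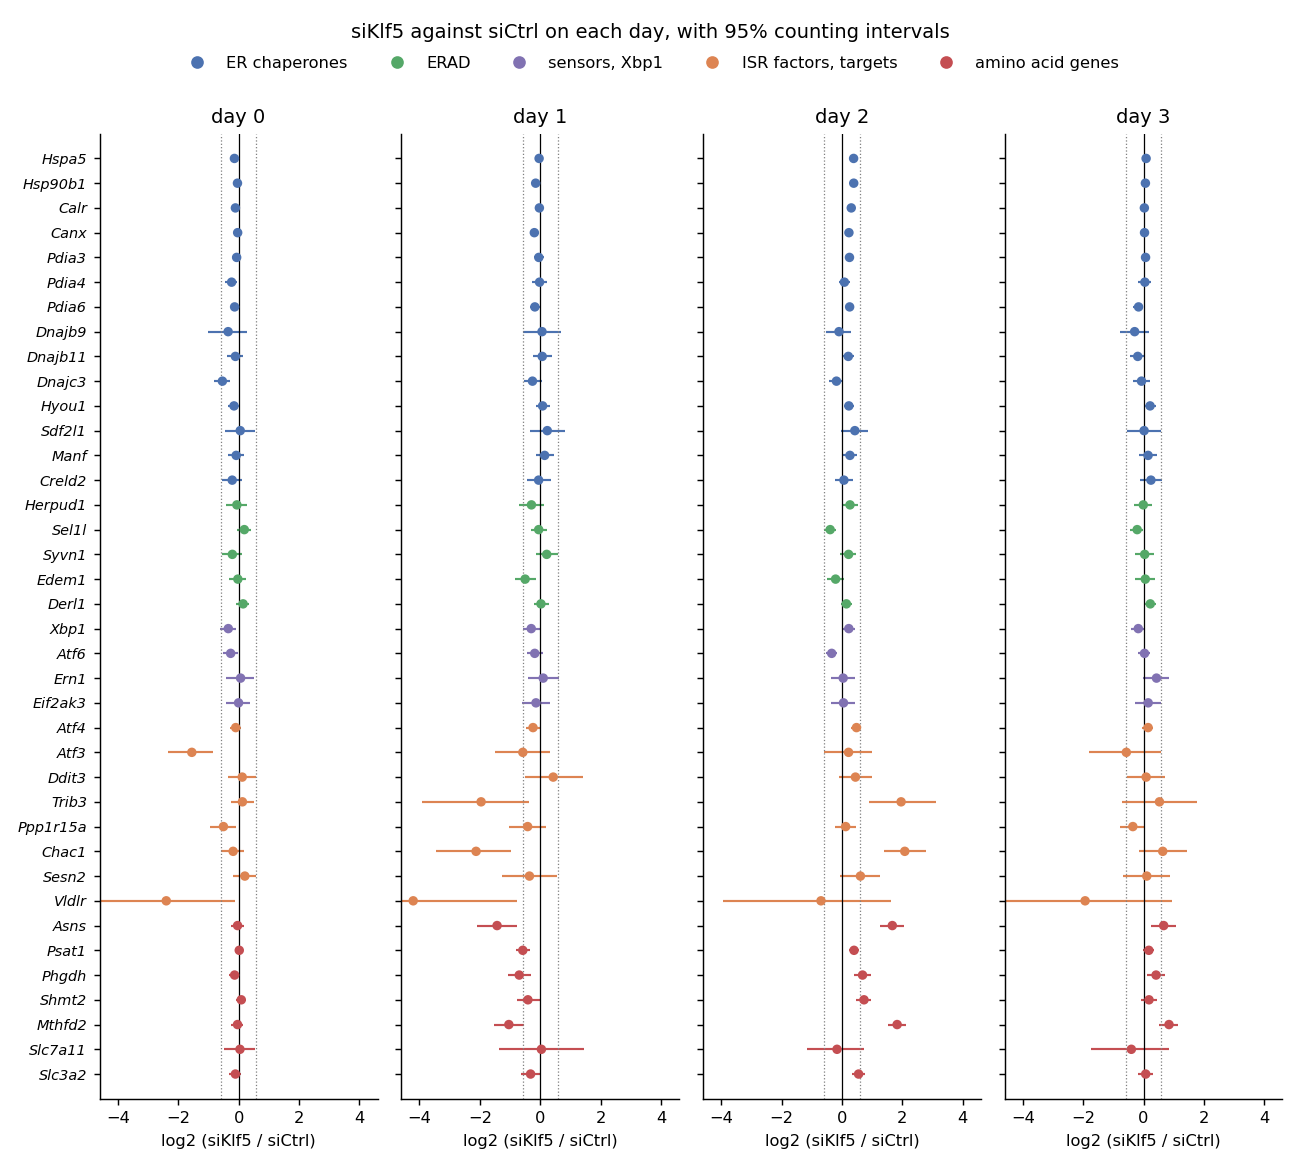
Log2 ratio of FPKM in siKlf5 to siCtrl cells for each of the 38 genes, with 1 panel per day and genes colored by role. Points are ratios, bars are 95% counting intervals (cut off at the panel edge for Vldlr), and dotted lines mark 1.5-fold. Blue chaperone points stay between the dotted lines on every day. Most orange and red points lie left of 0 on day 1 and right of 0 on day 2, as do most blue ones by sign.

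Averaged over the 4 days by limma, 0 of the 38 genes differed between siKlf5 and siCtrl in either direction (adjusted p below 0.05), beside 8 lower (0.0559%) and 1 higher (0.00699%) of all expressed transcripts. At an unadjusted p below 0.05, 3 were lower, namely Vldlr (-2.31 ± 0.98), Ppp1r15a (-0.29 ± 0.12) and Dnajc3 (-0.26 ± 0.10), and Ddit3 was higher (0.27 ± 0.10), all as log2 difference ± SE. Of all expressed transcripts, 5.67% were lower and 3.93% higher at that unadjusted p. Their adjusted p-values in limma lay between 0.455 and 0.520. In simulated data for this comparison, a change of 1.5-fold was called in 53.7% of altered genes, a change of 2-fold in 77.6% and a change of 4-fold in 98.5%, where the change was the same on all days. These data held counting error only, and changes were placed only in the more strongly expressed transcripts. Real libraries also hold variation between cultures and between days, so these rates do not give the power of the real comparison.

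Day went with more calls than siRNA, whose term averages over the 4 days. Later days also differ from day 0 in culture medium and in time since transfection. These cannot be told apart from differentiation here. In the same fit, 10 of the 38 genes were lower and 0 higher on day 1 than on day 0 (all expressed transcripts: 9.93% lower, 6.82% higher). On day 2, 9 were lower and 2 higher (11.6% and 11.5%). On day 3, 11 were lower and 3 higher (17.6% and 12.8%). The genes that fell were, with the exception of Pdia4 on day 3, genes of the ISR and of amino acid supply, and those that rose were Dnajb9 and Atf6 on days 2 and 3 and Herpud1 on day 3. Day terms depend in part on how libraries were scaled. With median-ratio scaling, day 1 had 8 lower and 2 higher of the 38 genes, and day 3 had 7 lower and 3 higher. They also depend on the filter and on the trend. With no filter on low values the lower calls were 1, 0 and 3 on days 1, 2 and 3, and the higher calls 0, 0 and 1. Without the trend the lower calls were 4, 3 and 4 and the higher calls 0, 1 and 2. Of the day 3 calls, those of Ddit3, Sesn2, Slc7a11 and Atf6 held under all alternatives run.

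Counted in each siRNA series without a test, the genes at least 1.5-fold below day 0 numbered 11, 14 and 13 of 38 on days 1, 2 and 3 in siCtrl cells (all expressed transcripts: 22.8%, 18.1% and 23.5%), and 12, 10 and 12 in siKlf5 cells (19.8%, 20.2% and 23.6%). Those at least 1.5-fold above day 0 numbered 0, 1 and 1 in siCtrl cells (15.4%, 22.9% and 22.5%), and 1, 3 and 2 in siKlf5 cells (18.2%, 21.3% and 21.7%). Of all expressed transcripts past 1.5-fold on day 1 in siCtrl cells, 40.3% were higher, and this share was 50.5% with median-ratio and 53.0% with upper-quartile scaling.

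**Figure D2:**
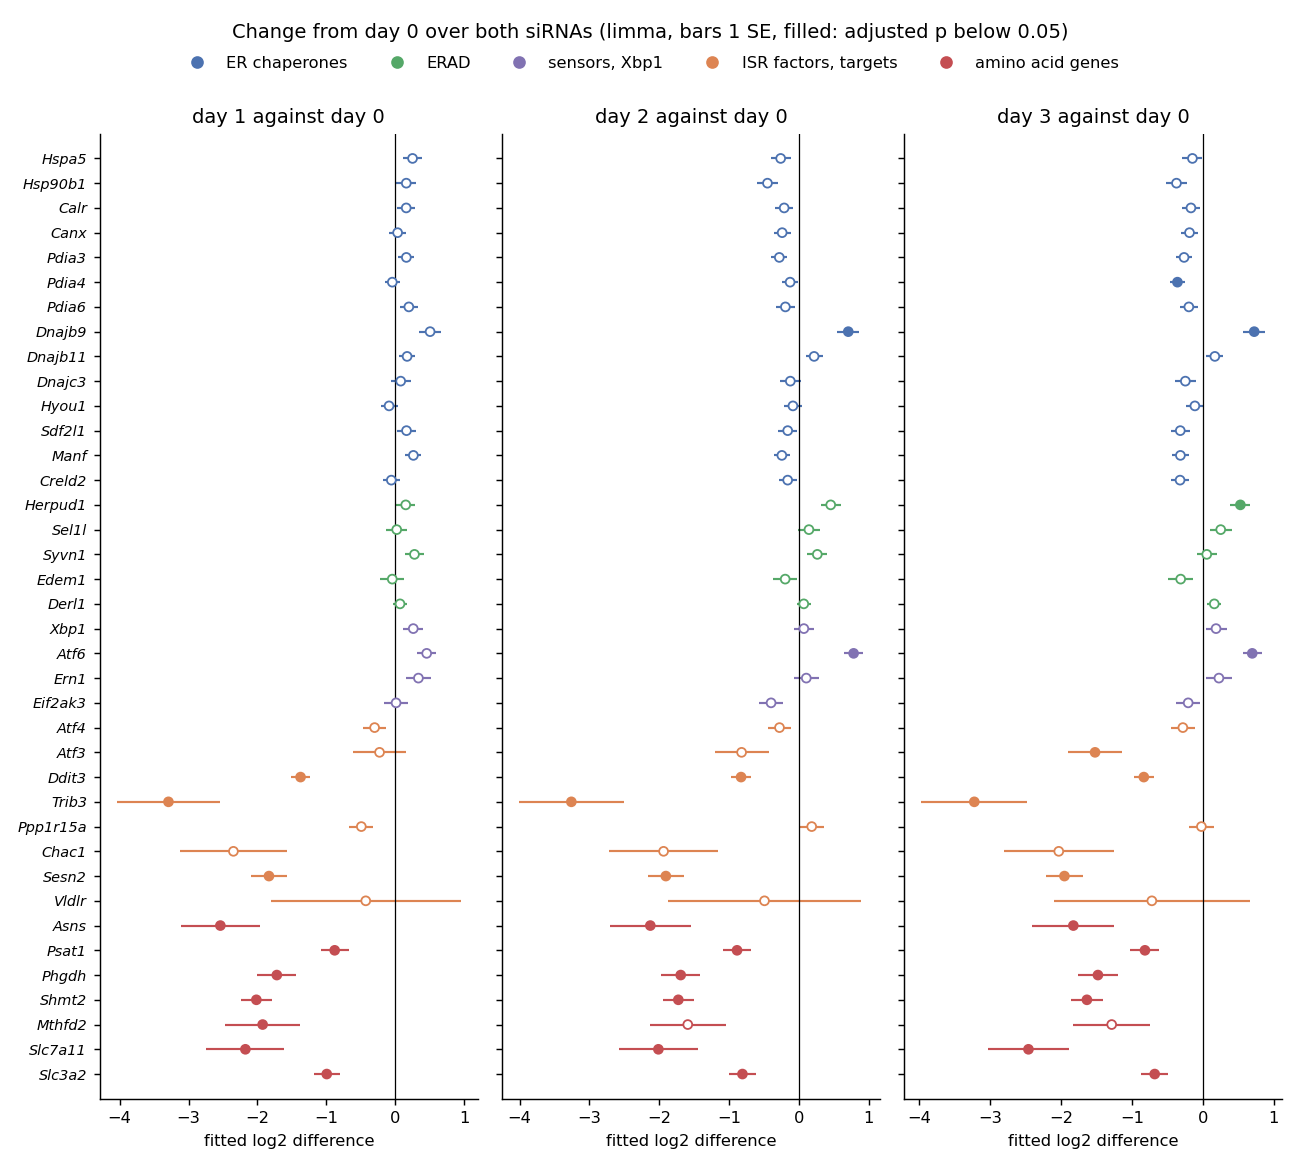
Fitted log2 difference of days 1, 2 and 3 from day 0 over both siRNAs for the 38 genes, colored by role. Bars are 1 SE, and filled points had an adjusted p below 0.05 in limma. Filled points to the left are ISR and amino acid genes, apart from Pdia4 on day 3, and those to the right are Dnajb9, Atf6 and Herpud1.

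The 14 chaperones and folding enzymes were the most strongly expressed role, from 68.2 FPKM (Dnajb9, siKlf5, day 0) to 2428 FPKM (Hsp90b1, siCtrl, day 1). Hspa5, the Hsp70 chaperone that also holds the stress sensors inactive, was at 1604, 1845, 1116 and 1340 FPKM on days 0, 1, 2 and 3 in siCtrl cells and at 1457, 1796, 1459 and 1421 FPKM in siKlf5 cells. Its lowest value was that of siCtrl cells on day 2, and the others lay between 1340 and 1845 FPKM. Hsp90b1 (Grp94), the Hsp90 of the ER, was at 2087, 2428, 1317 and 1558 FPKM in siCtrl cells and at 2032, 2184, 1727 and 1625 FPKM in siKlf5 cells. The calcium-binding lectin chaperone Calr was at 1513, 1647, 1132 and 1286 FPKM in siCtrl cells and at 1406, 1613, 1403 and 1310 FPKM in siKlf5 cells, with the same order of days as Hspa5 in siCtrl cells. For 8 of the 14, the siCtrl maximum was on day 1, and for 10 of the 14 so was the siKlf5 maximum. The summed FPKM of the role went from 11041 on day 0 to 12095 on day 1 and 8290 on day 2 in siCtrl cells, and from 10262 to 11516 and 10018 in siKlf5 cells. Abundant transcripts in general also fell from day 1 to day 2 in siCtrl cells. Of 981 with a mean of at least 500 FPKM, 790 did so. Their median log2 difference was -0.29, beside -0.46 for the 14. In siKlf5 cells these medians were -0.08 and -0.17. The part of this general shift in the chaperone values was not tested.

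None of the 14 passed 1.5-fold between siKlf5 and siCtrl on any day. On day 2, 12 of the 14 were above their siCtrl level, by a median log2 ratio of 0.24, close to the 0.20 of abundant transcripts in general. The largest of these ratios was 0.43, in Sdf2l1, a cochaperone of Hspa5, at 152 FPKM in siCtrl and 205 FPKM in siKlf5 cells. The 2 below 0 were Dnajc3 and Dnajb9. Dnajc3 (p58IPK), a cochaperone and inhibitor of Eif2ak3, was at 186, 179, 151 and 133 FPKM in siCtrl cells and at 128, 149, 133 and 127 FPKM in siKlf5 cells. It was thus lower in siKlf5 cells on all 4 days, with its widest log2 difference, -0.54, on day 0. The lectin chaperone Canx was between 761 and 1068 FPKM, and the disulfide isomerases Pdia3 and Pdia6 were between 810 and 1259 FPKM over the 8 libraries. Further down, Pdia4, Dnajb11, Hyou1, Manf and Creld2 were between 266 FPKM (Manf) and 593 FPKM (Dnajb11).

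Over time, 1 of the 14 fell and 1 rose by day 3 in limma (all expressed transcripts: 17.6% lower, 12.8% higher). Pdia4, a disulfide isomerase, was at 590, 533, 485 and 418 FPKM in siCtrl cells and at 502, 524, 513 and 431 FPKM in siKlf5 cells. Its fitted day 3 difference was -0.36 ± 0.11 (SE; limma, adjusted p = 0.0431), and it missed the threshold without the filter, without the trend, without the day 2 libraries and under both other scalings. Dnajb9 (ERdj4), a cochaperone that delivers Hspa5 to Ern1 and is a known target of Xbp1, was at 86.9, 107, 130 and 141 FPKM in siCtrl cells and at 68.2, 112, 122 and 115 FPKM in siKlf5 cells. Its day 0 value was the lowest in both series, and the fitted log2 difference of day 3 was 0.73 ± 0.16 (SE; limma, adjusted p = 0.0102), a call lost without the filter.

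Genes of ER-associated degradation lay between 86.8 and 464 FPKM, and none passed 1.5-fold between siKlf5 and siCtrl on any day. Herpud1, a membrane protein of the degradation complex, was at 239, 288, 293 and 339 FPKM in siCtrl cells and at 230, 235, 353 and 337 FPKM in siKlf5 cells. It rose by day 3, by 0.53 ± 0.14 (log2, SE; limma, adjusted p = 0.0241), and was the only gene of the 5 called on any day. Without the filter or without the trend this call was lost. Its promoter window was also the only one of the 34 to hold both ERSE-II and the composite element. Sel1l, the adaptor of the ubiquitin ligase Syvn1 (Hrd1), was at 149, 164, 201 and 203 FPKM in siCtrl cells and at 169, 158, 153 and 175 FPKM in siKlf5 cells. Syvn1 was between 147 and 207 FPKM, and the lectin Edem1, which hands misfolded glycoproteins to that complex, was between 86.8 and 127 FPKM. Derl1, a protein of the exit channel, was the highest, at 365 to 464 FPKM, and its highest and lowest values were the closest of the 5 in ratio. Reads of Syvn1 could be shared with Mrpl49, which overlaps it on the other strand, since both strands were counted.

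Among the sensors, Atf6 alone moved with time. Atf6, whose cleaved form is a transcription factor for chaperone genes, was at 118, 158, 209 and 173 FPKM in siCtrl cells and at 98.6, 139, 166 and 177 FPKM in siKlf5 cells. Day 0 was the lowest in both series, and the fitted rise was 0.78 ± 0.14 on day 2 (log2, SE; limma, adjusted p = 0.00547) and 0.70 ± 0.14 on day 3 (limma, adjusted p = 0.00657), of which the day 2 call was lost without the filter. Xbp1, the transcription factor made when Ern1 splices its mRNA, was at 382, 452, 330 and 411 FPKM in siCtrl cells and at 302, 367, 386 and 364 FPKM in siKlf5 cells. Values per gene do not separate its spliced from its unspliced form. Ern1 lay between 63.1 and 87.7 FPKM and Eif2ak3 between 59.5 and 84.7 FPKM. No sensor passed 1.5-fold between siKlf5 and siCtrl on any day, and the widest log2 ratio among the 4 was 0.43, for Ern1 on day 3.

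**Figure D3:**
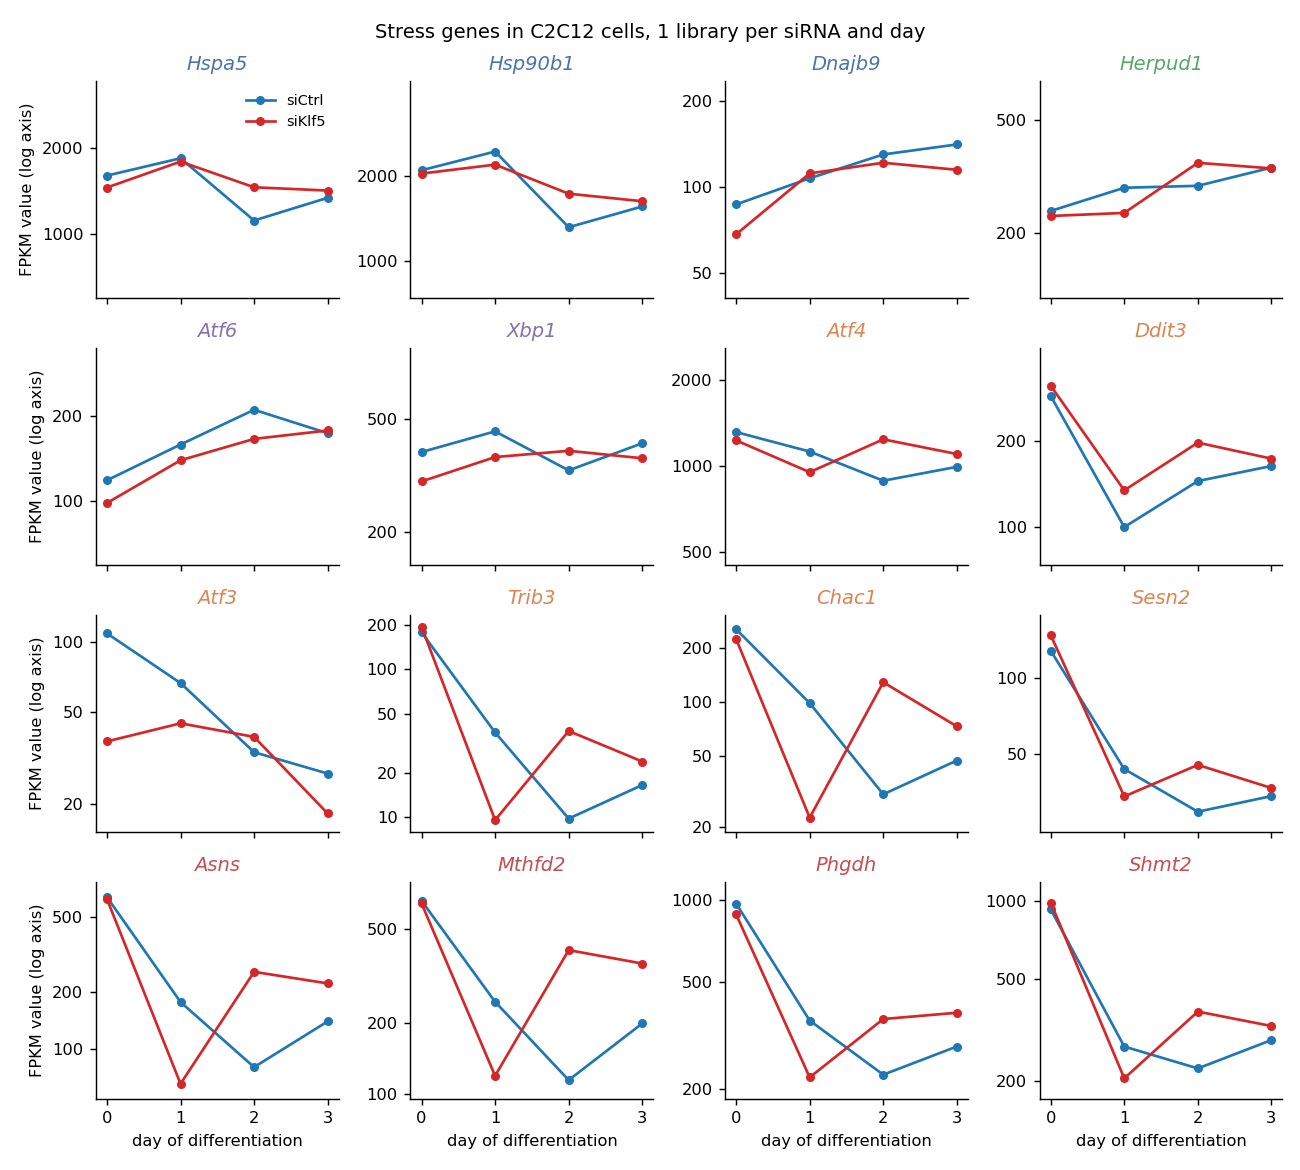
FPKM of 16 of the 38 genes by day of differentiation in siCtrl (blue) and siKlf5 (red) cells, each point 1 library, on a log axis that differs between panels. Title colors give the role (blue chaperones, green degradation, purple sensors, orange ISR, red amino acid genes). The red points of Trib3, Chac1, Asns, Mthfd2, Phgdh, Shmt2 and Sesn2 lie below the blue ones on day 1 and above them on day 2.

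Of the 8 ISR genes, Atf4 was by far the most abundant. Atf4, the transcription factor at the center of the response, is regulated mainly by translation, which RNA does not report. It was at 1316, 1124, 888 and 994 FPKM in siCtrl cells and at 1231, 952, 1241 and 1102 FPKM in siKlf5 cells. It was lower in siKlf5 cells on day 1, with a log2 ratio of -0.24, and higher on day 2, with a ratio of 0.48, neither past 1.5-fold. No day differed from day 0 for Atf4 in limma, with adjusted p between 0.248 and 0.283.

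The genes downstream of Atf4 spread much more widely. Trib3, a pseudokinase that feeds back on Atf4, was at 178, 37.4, 9.75 and 16.5 FPKM in siCtrl cells and at 194, 9.53, 38.2 and 23.7 FPKM in siKlf5 cells. It was 18.1-fold below day 0 on day 2 in siCtrl cells, and 20.2-fold below day 0 on day 1 in siKlf5 cells. The low point thus fell on day 2 in siCtrl cells and on day 1 in siKlf5 cells. The siKlf5 value was 3.89-fold lower than the siCtrl value on day 1 (log2 ratio -1.96, 95% interval -3.91 to -0.38) and 3.89-fold higher on day 2 (1.96, 95% interval 0.90 to 3.12). The fitted difference of day 3 from day 0 over both siRNAs was -3.23 ± 0.75 (log2, SE; limma, adjusted p = 0.0140), a call lost without the filter and without the trend.

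Chac1, an enzyme that degrades glutathione, had the same pattern at a higher level. It was at 256, 98.7, 30.5 and 47.1 FPKM in siCtrl cells and at 226, 22.5, 129 and 73.2 FPKM in siKlf5 cells. It was 4.37-fold lower in siKlf5 cells on day 1 (log2 ratio -2.13, 95% interval -3.46 to -0.97), 4.23-fold higher on day 2 (2.08, 95% interval 1.41 to 2.79) and 1.55-fold higher on day 3 (0.63, 95% interval -0.16 to 1.43). Its day 3 value was below day 0 in both series, yet the fitted difference of -2.03 ± 0.78 missed the threshold (limma, adjusted p = 0.0856). It passed once the day 1 libraries were left out.

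Sesn2, a leucine-binding inhibitor of mTORC1 signaling, was at 128, 43.7, 29.6 and 34.1 FPKM in siCtrl cells and at 148, 34.0, 45.3 and 36.8 FPKM in siKlf5 cells. All 6 values after day 0 were below both day 0 values, and the fitted day 3 difference was -1.95 ± 0.26 (log2, SE; limma, adjusted p = 0.00122). On day 2 it was 1.53-fold higher in siKlf5 cells, with an interval that included 0 (-0.05 to 1.26). Ddit3 (CHOP), a transcription factor tied to cell death in prolonged stress, was at 289, 100, 145 and 164 FPKM in siCtrl cells and at 314, 135, 198 and 174 FPKM in siKlf5 cells. It was lowest on day 1 in both series and was higher in siKlf5 cells on each of the 4 days, without the crossing of Trib3 and Chac1. However, all 4 of its 95% intervals included 0, at -0.51 to 1.41 on day 1 and -0.11 to 0.98 on day 2. Ddit3 was below day 0 on day 3 by -0.83 ± 0.14 (log2, SE; limma, adjusted p = 0.00326). Its transcript overlaps Mars, a tRNA synthetase gene on the other strand, and reads of the pair could be shared.

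Atf3, a transcription factor induced by many stresses, was at 109, 66.5, 33.4 and 27.0 FPKM in siCtrl cells and at 37.2, 44.5, 38.9 and 18.1 FPKM in siKlf5 cells. The wide gap was on day 0, at 2.93-fold lower in siKlf5 cells (log2 ratio -1.55, 95% interval -2.33 to -0.85), and the day 3 fall over both siRNAs was -1.52 ± 0.39 (log2, SE; limma, adjusted p = 0.0204) and was not called without the filter or without the trend. Ppp1r15a (Gadd34), the phosphatase subunit that ends the block of translation, lay between 80.2 and 155 FPKM and passed 1.5-fold on no day. Vldlr, a lipoprotein receptor known as a target of Atf4, was near the lower end of detection, at 3.66, 5.13, 1.38 and 1.84 FPKM in siCtrl cells and at 0.613, 0.183, 0.815 and 0.408 FPKM in siKlf5 cells. Its counts were 31 to 59 reads in siCtrl and 2 to 13 reads in siKlf5 libraries, every siKlf5 value was below every siCtrl value, and the log2 ratio on day 1 rested on 54 and 2 reads (-4.21, with an upper 95% limit of -0.76). Vldlr supplied the only lower ratio past 1.5-fold on days 2 and 3 and was the only 1 of the 38 genes with a mean below 5 FPKM.

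The 7 genes of amino acid synthesis and transport were highest on day 0 in both series. In siCtrl cells, 6 of the 7 were lowest on day 2, whereas in siKlf5 cells 6 of the 7 were lowest on day 1. Their median log2 difference from day 0 was -1.44, -2.05 and -1.73 on days 1, 2 and 3 in siCtrl cells and -2.18, -1.28 and -1.21 in siKlf5 cells. The summed FPKM went from 4922 on day 0 to 2130, 1450 and 1866 in siCtrl cells, and from 4840 to 1373, 2495 and 2335 in siKlf5 cells. In limma all 7 fell by day 1, and 6 of the 7 were below day 0 on day 2 and on day 3. Of all expressed transcripts, 9.93%, 11.6% and 17.6% were lower on these 3 days. Most of these calls depend on the filter, without which only 1, 0 and 3 of all 38 genes were called lower.

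Asns, asparagine synthetase, was at 636, 178, 80.6 and 141 FPKM in siCtrl cells and at 621, 65.8, 257 and 223 FPKM in siKlf5 cells. The day 0 values differed by less than their counting error (log2 ratio -0.03). On day 1 the siKlf5 value was 2.70-fold lower (log2 ratio -1.43, 95% interval -2.11 to -0.78), on day 2 it was 3.18-fold higher (1.67, 95% interval 1.28 to 2.06), and on day 3 it was 1.59-fold higher (0.67, 95% interval 0.26 to 1.06). The day 3 fall over both siRNAs was -1.83 ± 0.58 (log2, SE; limma, adjusted p = 0.0456), a call that was lost under both other scalings, without the filter and without the trend.

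Mthfd2, a mitochondrial enzyme of one-carbon metabolism, was at 659, 246, 114 and 199 FPKM in siCtrl cells and at 642, 119, 407 and 357 FPKM in siKlf5 cells. It was 2.06-fold lower in siKlf5 cells on day 1 (log2 ratio -1.04, 95% interval -1.53 to -0.55), 3.55-fold higher on day 2 (1.83, 95% interval 1.52 to 2.13) and 1.79-fold higher on day 3 (0.84, 95% interval 0.52 to 1.15). Its values after day 0 were all below day 0. The fall was called on day 1, at -1.92 ± 0.54 (log2, SE; limma, adjusted p = 0.0471), but not on day 3, at -1.29 ± 0.54 (limma, adjusted p = 0.112). The day 1 call was lost without the filter, without the trend, under both other scalings and without the day 3 libraries.

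The serine pathway behaved alike, with smaller ratios. Phgdh, its first enzyme, was at 971, 359, 226 and 288 FPKM in siCtrl cells and at 885, 221, 363 and 383 FPKM in siKlf5 cells, a ratio of -0.70 (95% interval -1.08 to -0.30) on day 1 and 0.68 (95% interval 0.40 to 0.95) on day 2 on the log2 scale. Psat1, the next enzyme, was at 1146, 768, 544 and 617 FPKM in siCtrl cells and at 1163, 514, 718 and 696 FPKM in siKlf5 cells, and passed 1.5-fold on neither day (-0.58 and 0.40). Shmt2, which makes glycine from serine in mitochondria, was at 928, 273, 224 and 289 FPKM in siCtrl cells and at 986, 205, 373 and 328 FPKM in siKlf5 cells, 1.66-fold higher on day 2 (log2 ratio 0.73, 95% interval 0.48 to 0.97). By day 3 these 3 enzymes were below day 0 by -1.48 ± 0.28, -0.82 ± 0.20 and -1.64 ± 0.22 respectively (log2, SE; limma, adjusted p = 0.00608, 0.0193 and 0.00134). Without the filter all 3 calls were lost, without the trend those of Phgdh and Psat1, and under both other scalings that of Psat1. Shmt2 can share reads with Ndufa4l2 on the other strand.

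Slc3a2 and Slc7a11 encode the heavy and the light chain of the cystine and glutamate exchanger. Slc3a2, which also partners other amino acid carriers, was at 559, 302, 254 and 328 FPKM in siCtrl cells and at 519, 242, 373 and 345 FPKM in siKlf5 cells, with the same crossing of the series but no ratio past 1.5-fold. Its day 3 fall was called in limma, but not without the filter, without the trend or under either other scaling. Slc7a11 was at 22.8, 4.99, 6.01 and 4.76 FPKM in siCtrl cells and at 23.6, 5.13, 5.36 and 3.58 FPKM in siKlf5 cells. It fell as the others did, by -2.46 ± 0.57 on day 3 (log2, SE; limma, adjusted p = 0.0136), yet siKlf5 and siCtrl values lay close together on every day, and its day 1 ratio was 0.04. Slc7a11 was thus the 1 gene of the role that was not lower in siKlf5 cells on day 1 and higher on day 2, at a level at which the interval of a ratio spanned more than 1.5-fold in both directions on day 1.

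Trib3, Chac1, Asns, Phgdh and Mthfd2 were at least 1.5-fold lower in siKlf5 cells on day 1 and at least 1.5-fold higher on day 2. These 5 were 13.2% of the 38 genes, whereas 260 of all 14312 expressed transcripts (1.82%) and 72 of 11591 transcripts with a mean of at least 10 FPKM (0.621%) had that pattern. The opposite pattern, higher on day 1 and lower on day 2, was seen in 0 of the 38 genes. It was seen in 451 of 14312 expressed transcripts and in 136 of 11591 with a mean of at least 10 FPKM. These shares are so small that 0 of 38 says little about these genes. Across the 38 genes, Pearson's r of the day 1 and day 2 ratios was -0.29 and Spearman's rho was -0.31, and across all expressed transcripts r was 0.00 and rho was 0.11, which are descriptions, since genes of 1 pair of libraries are not independent. Whether the ratios of the 2 days differ could not be tested with 1 library per siRNA and day. The day 2 siCtrl library was also the deepest of the 8, and the part of depth in these ratios was not tested.

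**Figure D4:**
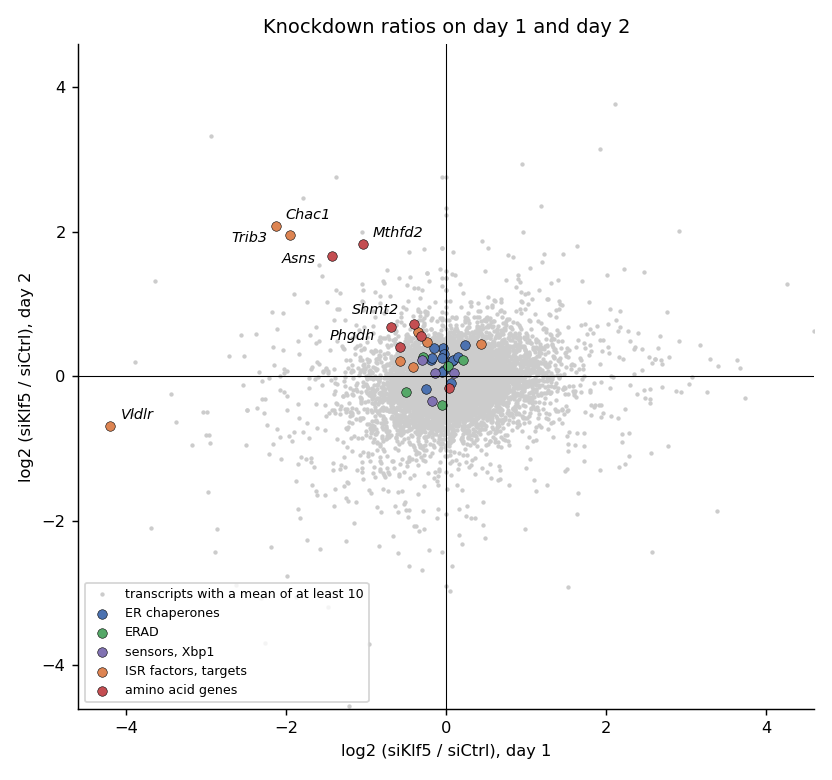
Log2 ratio of siKlf5 to siCtrl on day 1 (horizontal) and day 2 (vertical) for the 38 genes, colored by role, over 11591 transcripts with a mean of at least 10 FPKM in gray, of which 152 lie beyond the axes. Chac1, Trib3, Asns and Mthfd2 lie at the upper left, away from the bulk of the gray points, and the chaperones lie near the origin.

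Other genes of the same pathways were taken from 4 lists of 94 genes in all, of which 93 were expressed. The 13 genes of cytosolic aminoacyl-tRNA synthetases and tRNA export, known targets of Atf4 as a group, followed the amino acid genes at smaller amplitude. On day 1 all 13 were below their siCtrl level, with a median log2 ratio of -0.46, and on day 2, 12 of the 13 were above it, with a median of 0.46, beside medians of 0.03 and -0.03 over all expressed transcripts. A single gene passed 1.5-fold on each of these days, Yars on day 1 (-0.64) and Nars on day 2 (0.66). In limma 13, 12 and 12 of the 13 fell by days 1, 2 and 3 (all expressed transcripts: 9.93%, 11.6% and 17.6% lower). Most such calls in the 4 lists depend on the filter and the trend. Over all 93 genes, 29 and 31 were lower on days 1 and 2. Without the filter 2 and 4 of 94 were lower on these days, and without the trend 2 and 6 of 93. Of 15 expressed further genes of amino acid synthesis and transport, 8 were lower and 2 higher (Cth and Slc7a3) past 1.5-fold on day 1, 0 were lower and 5 higher (Psph, Aldh18a1, Aldh1l2, Slc7a3 and Slc7a5) on day 2, and 9, 8 and 8 fell by days 1, 2 and 3 in limma, with 0 that rose.

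The 43 further genes of ER folding, translocation and degradation stayed close to control. On day 1, 1 was lower (Ero1l) and 2 were higher (Ero1lb and Derl3) past 1.5-fold, and on day 2 none was. By day 3, 11 of these 43 fell and 6 rose in limma. Of all expressed transcripts, 17.6% were lower and 12.8% higher on that day, beside which each day 3 count of the main fit here should be read. Of the 22 further sensors, kinases and factors, 9 fell and 4 rose (Creb3, Creb3l2, Eif2ak1 and Fgf21) by day 3. Over all 93 genes, 40 fell and 10 rose by day 3, 9 and 3 of all 94 without the filter, and 12 and 2 without the trend. The siRNA term called 0 of the 93 in limma, of which 3 were lower (Ssr4, Ero1l and Stc2) and 2 higher (Jdp2 and Creb3l1) at an unadjusted p below 0.05, beside the 5.67% and 3.93% of all expressed transcripts. Where these names fall outside the rule for named genes, they were chosen after their values were seen.

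**Figure D5:**
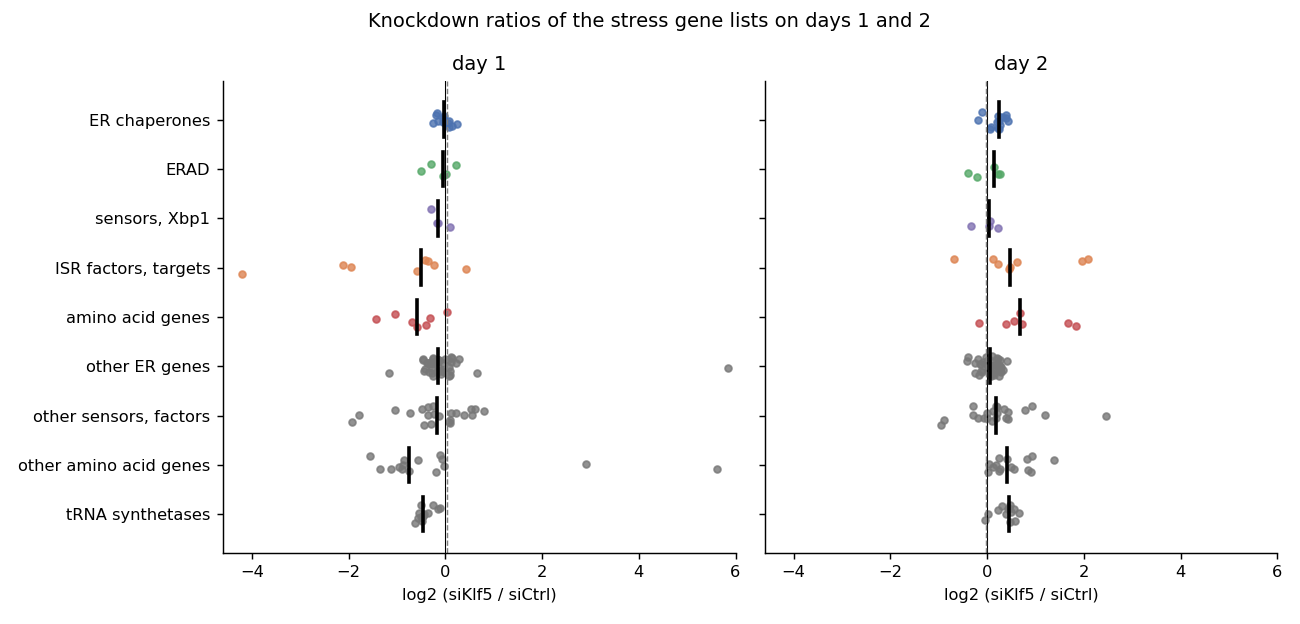
Log2 ratio of siKlf5 to siCtrl on days 1 and 2 for the 5 roles of the 38 genes (colored) and the 4 further lists (gray). Each point is 1 expressed gene, black bars are list medians and the dashed line is the median of all expressed transcripts. The medians of ISR genes, amino acid genes and tRNA synthetases lie left of 0 on day 1 and right of 0 on day 2, and the chaperone points are narrow.

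Among these further genes, the 3 with the largest rise by day 3 were Fgf21, Fkbp14 and Edem3. Fgf21, a secreted stress hormone, was at 24.8, 214, 48.7 and 103 FPKM in siCtrl cells and at 29.1, 62.1, 269 and 300 FPKM in siKlf5 cells. It thus rose from day 0, by 2.70 ± 0.82 on day 3 (log2, SE; limma, adjusted p = 0.0393), where the amino acid genes fell, yet the siKlf5 value was likewise below the siCtrl value on day 1 and above it on day 2. Fkbp14, a prolyl isomerase of the ER, rose by 0.86 ± 0.17 (limma, adjusted p = 0.00780), and Edem3 by 0.77 ± 0.19 (limma, adjusted p = 0.0177). Without the filter these 3 calls and those of the 3 largest falls were lost, and without the trend those of Fgf21, Edem3, Gdf15 and Aldh1l2. The 3 largest falls were in Gdf15, a secreted stress cytokine (-2.46 ± 0.45; limma, adjusted p = 0.00511), in Aldh1l2, a mitochondrial folate enzyme (-2.34 ± 0.55; limma, adjusted p = 0.0153), and in Stc2, a secreted glycoprotein (-1.90 ± 0.33; limma, adjusted p = 0.00367). Aldh1l2 was at 289, 58.7, 23.1 and 50.9 FPKM in siCtrl cells and at 279, 19.98, 60.3 and 61.7 FPKM in siKlf5 cells, the pattern of Asns and Mthfd2.

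For the siRNA term no further gene passed the threshold, and the 3 most positive and 3 most negative fitted differences are given as values. Slc7a3 was at 2.06 ± 1.01, Derl3 at 1.77 ± 1.44 and Fgf21 at 0.61 ± 0.58, and Stc2 was at -1.003 ± 0.23, Cth at -0.64 ± 1.25 and Ero1l at -0.58 ± 0.16 (log2, SE). Slc7a3, Derl3 and Cth were at 0 in at least 1 library. Stc2 was at 184, 157, 53.1 and 50.8 FPKM in siCtrl cells and at 126, 41.1, 28.5 and 32.5 FPKM in siKlf5 cells, lower on all 4 days (limma, adjusted p = 0.259).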

How the data were processed

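Poly(A) RNA of the 8 libraries was sequenced by the authors, aligned to mm9 with STAR and counted on RefSeq exons with HOMER. Counting ignored strand, and no more than 3 reads were retained at a position. They deposited FPKM values scaled to a total of 10000000, which are therefore larger than usual FPKM. Multiplied by length in kilobases, the values of the listed transcripts summed to less than that. The sums lay between 6.03e+06 (siCtrl, day 3) and 6.23e+06 (siKlf5, day 0) per library. DESeq2 normalization is named in the study's methods, but such counts were not used here. A further 8 columns of log2 values and the 6 ChIP-seq samples were not analysed here. Overlapping genes on opposite strands can share reads. Coordinates of the table are on mm9 and were not used for promoters, which are RefSeq windows on GRCm38.p6.

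Reads were recovered from the low values of each library, and a whole number was met within 0.1 by 100% of the 3643 to 4113 values examined in each library. Ratios used a pseudocount of 0.1 and a cutoff of 1.5-fold. A mean FPKM of at least 1 defined expressed transcripts. The test was limma 3.58.1 (R 4.3.3) with an intensity trend on log2(FPKM + 0.1), terms for day and siRNA, 3 residual degrees of freedom and Benjamini-Hochberg adjustment over all 14312 expressed transcripts, with a threshold of 0.05. It was tested on simulated data that held counting error only. Other steps ran in Python 3.11.15 with pandas 2.3.3, scipy 1.17.1, numpy 2.4.6 and, for plots, matplotlib 3.10.9. The members, the further lists, the motifs and the markers were chosen with earlier results of these data known. Every member was named. Of the further genes, for the siRNA term and the day 3 term, the 3 largest rises and the 3 largest falls among those called were named, or, where fewer than 3 were called, the 3 largest differences of all. Alternatives were another pseudocount (1), other filters (none, or a mean of at least 5), other scalings, limma without the trend or the day term, and leaving out the libraries of each day in turn.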

Additional observations from a re-analysis of the deposited data

Results flagged for a closer look

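The rule took ratios of siKlf5 to siCtrl past 1.5-fold whose 95% counting interval excluded 0. Such ratios lay on opposite sides of 0 on different days for 5 genes. Each day has 1 library per siRNA, so the difference between days was not tested. Trib3 was at -1.96 on day 1 and 1.96 on day 2 on the log2 scale. Chac1 was at -2.13 and 2.08 on these days. Phgdh was at -0.70 and 0.68. Asns was at -1.43 on day 1, 1.67 on day 2 and 0.67 on day 3. Mthfd2 was at -1.04, 1.83 and 0.84 on these 3 days. The intervals were part of the rule and are no further support. The day 3 ratio of Chac1 (0.63) was past 1.5-fold but is not listed, because its interval included 0. Each listed ratio kept its direction and its side of the cutoff with the other pseudocount and with both other scalings. A filter cannot alter the ratio of a gene.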

How the results depend on the processing

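No day 3 difference called in limma, and no ratio past 1.5-fold of Trib3, Chac1, Asns, Phgdh or Mthfd2, changed sign under any alternative. Among the alternatives, the filters could not alter such a sign. The small uncalled day 3 differences of Hyou1 and Ppp1r15a changed sign with median-ratio scaling. For siKlf5 against siCtrl, a mean of at least 5 FPKM, which leaves out Vldlr, gave 1, 0 and 0 lower genes on days 0, 2 and 3, and a pseudocount of 1 gave 0 lower on day 2. For genes above day 0, median-ratio scaling gave 1, 2 and 3 on days 1, 2 and 3 in siCtrl cells. Upper-quartile scaling gave 2 on days 1 and 3 in siCtrl cells and 3 on day 1 in siKlf5 cells. In limma, day 1 called 1 higher gene with a mean of at least 5 and 2 under both scalings. Day 3 called 7 lower genes under both scalings, where Psat1, Pdia4, Slc3a2 and Asns were lost. Without a filter the lower calls were 1, 0 and 3 on days 1, 2 and 3 and the higher calls 0 on day 2 and 1 on day 3, with Psat1, Pdia4, Phgdh, Slc3a2, Shmt2, Herpud1, Asns, Dnajb9, Atf3 and Trib3 lost on day 3. Without the trend, the lower calls were 4, 3 and 4 and the higher calls on day 2 were 1, with the same genes but Shmt2 and Dnajb9 lost on day 3. Why the calls depend on the filter and the trend was not tested. Leaving out the libraries of 1 day gave 9 lower on day 1, 9 to 11 on day 2 and 11 to 13 on day 3, with 0, 2 to 3 and 3 higher, and 0 for the siRNA. Pdia4 was lost without day 2, Hsp90b1 was gained without day 2, and Mthfd2 and Chac1 were gained without day 1.

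Over all transcripts, day 3 had 2516 lower and 1831 higher, 1256 and 905 without a filter, 1366 and 1227 without the trend, and 1828 and 2173 with median-ratio scaling. Day 1 had 1421 lower and 976 higher, 371 and 282 without a filter, 308 and 359 without the trend, 976 and 1195 with median-ratio and 897 and 1266 with upper-quartile scaling, which moved the median of all transcripts from -0.09 to 0.03. Day 2 had 1662 lower and 1645 higher, 551 and 655 without a filter, and 512 and 862 without the trend. The siRNA term called 8 lower and 1 higher, and 0 and 0 without a filter or without the trend. Without day 0 it called 13 and 3, without day 1 it called 3 and 1, without day 2 it called 0 and 0, and without day 3 or without the day term it called 1 and 0. No paired analysis beyond the day term was possible because each siRNA and day has 1 library. Low genes such as Vldlr rest on few reads.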
